A study of Mus musculus with 3 samples.

Results

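The genes of the tricarboxylic acid (TCA) cycle and of pyruvate and glutamate entry into it were examined in ATAC-seq peak lists of mouse leukemic B-cell lines. The set held 31 named genes of 21938 protein-coding genes. They were chosen by symbol for their place in the pathway, with earlier results of these data known. Open chromatin was described in the promoter window, which took in 2000 bp ahead of each GENCODE start site and 200 bp past it, and in the rest of the gene body. ATAC-seq marks accessible DNA by the insertion of sequencing adapters with a transposase. The 4 lists came from 4 cell lines, 2 per genotype. Bone marrow of mice homozygous for wildtype Cdk6 (WT, Cdk6+/+) or for the kinase-inactive K43M allele (K43M, Cdk6 KM/KM) had been transduced with a retrovirus carrying BCR-ABL(p185), so that lines of both genotypes carried the oncogene. Each library was 1 stable line in culture, without drug treatment named in the labels. The lists were WT replicate 2, K43M replicate 1, K43M replicate 2 and a further wildtype list, called WT unnumbered, that had no labelled sample and was placed with WT by the series' design text, by which the missing wildtype line had come from an earlier submission and was analysed again. Nothing else states that lines came from separate mice, so errors measure the spread between these lines.

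The TCA cycle oxidises acetyl-CoA to carbon dioxide in the mitochondrial matrix and delivers reduced cofactors to the electron transport chain. Pyruvate enters the matrix through a carrier and becomes acetyl-CoA through the pyruvate dehydrogenase complex or oxaloacetate through pyruvate carboxylase. Glutamine carbon enters as glutamate, which transaminases and glutamate dehydrogenase turn into 2-oxoglutarate. Citrate and malate also leave the cycle to supply acetyl-CoA and reducing power for biosynthesis in proliferating cells. Most of these enzymes are made in nearly all cell types, from promoters rich in CpG dinucleotides.

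The lists held 33038, 34248, 39038 and 34752 peaks for WT unnumbered, WT replicate 2, K43M replicate 1 and K43M replicate 2, in which order values are given throughout. K43M replicate 1 was the longest list. Of 6 B-lineage marker genes (Cd79a, Cd79b, Ebf1, Pax5, Vpreb1, Igll1), 6, 6, 6 and 5 had a promoter peak, and the missing one was Cd79b in K43M replicate 2. Of 3 T cell genes, 0, 1, 0 and 0 had one, and the 3 myeloid, 3 erythroid and 3 other-tissue genes had 0 in each list. The B-cell label was thus met by the markers.

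Promoters of the pathway were open almost without exception. Of the 31 genes, 30 (96.8%) had a promoter peak in all 4 lists, and Me1, cytosolic malic enzyme, had none in any list. Over all protein-coding genes, 47.6% had a promoter peak in all lists. No member had promoter peaks in both lists of 1 genotype and neither of the other, where 0.515% of all genes had them in the WT lists only and 2% in the K43M lists only. Leaving out any library, WT unnumbered included, gave the same 30. Of 13 other genes of the pathway, namely the succinate dehydrogenase subunits, lactate dehydrogenases, Pck2, Gpt2, Glul, Slc1a5 and mitochondrial dicarboxylate, oxoglutarate and citrate carriers, 12 (92.3%) had a promoter peak in all lists and 1, Ldhb, had none.

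The summits of these promoter peaks carry the sequence under study, and 5 windows around the strongest summit are printed to show what was searched. They were chosen after the motif counts below were seen: Idh3a as the highest peak, Got1 and Fh1 for their CCAAT boxes, Mdh2 for the most kinds of motif, and Dlst for an intronic summit described further on. The sequence is from the GRCm38 assembly (mm10), written 5′ to 3′ on the strand of the gene, and capitals mark exact matches to the motifs searched.
Idh3a, chr9:54586255-54586455, plus strand: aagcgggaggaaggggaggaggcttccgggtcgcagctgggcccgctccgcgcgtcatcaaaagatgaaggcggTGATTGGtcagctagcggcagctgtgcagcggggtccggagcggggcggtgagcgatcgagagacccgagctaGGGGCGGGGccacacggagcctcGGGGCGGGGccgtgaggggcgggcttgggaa
Got1, chr19:43524565-43524765, minus strand: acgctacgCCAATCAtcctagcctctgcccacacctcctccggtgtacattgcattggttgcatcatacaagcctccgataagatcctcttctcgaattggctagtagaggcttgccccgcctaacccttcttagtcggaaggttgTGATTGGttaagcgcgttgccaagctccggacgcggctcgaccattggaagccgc
Fh1, chr1:175625553-175625753, minus strand: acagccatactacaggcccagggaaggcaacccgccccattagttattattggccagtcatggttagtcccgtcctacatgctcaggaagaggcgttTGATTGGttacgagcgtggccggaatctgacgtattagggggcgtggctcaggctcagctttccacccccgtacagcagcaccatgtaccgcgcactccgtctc
Mdh2, chr5:135778329-135778529, plus strand: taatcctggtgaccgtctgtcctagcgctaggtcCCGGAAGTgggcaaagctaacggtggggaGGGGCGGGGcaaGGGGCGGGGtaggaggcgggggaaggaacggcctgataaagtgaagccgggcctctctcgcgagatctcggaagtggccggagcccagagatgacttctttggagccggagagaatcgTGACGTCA
Dlst, chr12:85130558-85130758, plus strand: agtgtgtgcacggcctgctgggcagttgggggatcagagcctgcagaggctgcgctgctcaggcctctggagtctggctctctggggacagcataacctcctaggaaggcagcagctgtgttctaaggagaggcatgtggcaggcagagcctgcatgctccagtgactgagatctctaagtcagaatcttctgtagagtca
The Idh3a window held 2 exact matches to the GC-box letters searched (SP1) and 1 to the CCAAT-box letters searched (NFY). Got1 held 2 NFY matches, and Fh1 held 1. Shorter cores of these boxes elsewhere in the windows were not counted. The Mdh2 window held 1 ETS match, 2 SP1 matches and, at its edge, 1 match to the cyclic AMP response element (CRE). The Dlst window held none.

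The height of a peak is given as fold enrichment, the ratio of signal at the summit to the local background of the same library. Member promoters had median fold enrichments of 11.0, 11.8, 11.6 and 11.4, against 10, 10.0, 10.3 and 9.82 over the 10446 protein-coding genes with a promoter peak in all lists. Within each list the median member promoter stood at the percentile 91.6, 92.8, 93.7 and 94.9 by -log10 q, against 82.8, 83.6, 85.4 and 84.0 for all those genes. The members were therefore spread around a slightly higher centre than other open promoters, in both genotypes. Their strongest summits lay within 100 bp of an annotated start in 22, 23, 22 and 21 of 30 genes, as in 69.9%, 69.4%, 69.2% and 68.8% of all. The peaks were also broad, with median widths of 972, 964, 944 and 887 bp against 866, 824, 866 and 775 bp.

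**Figure D1:**
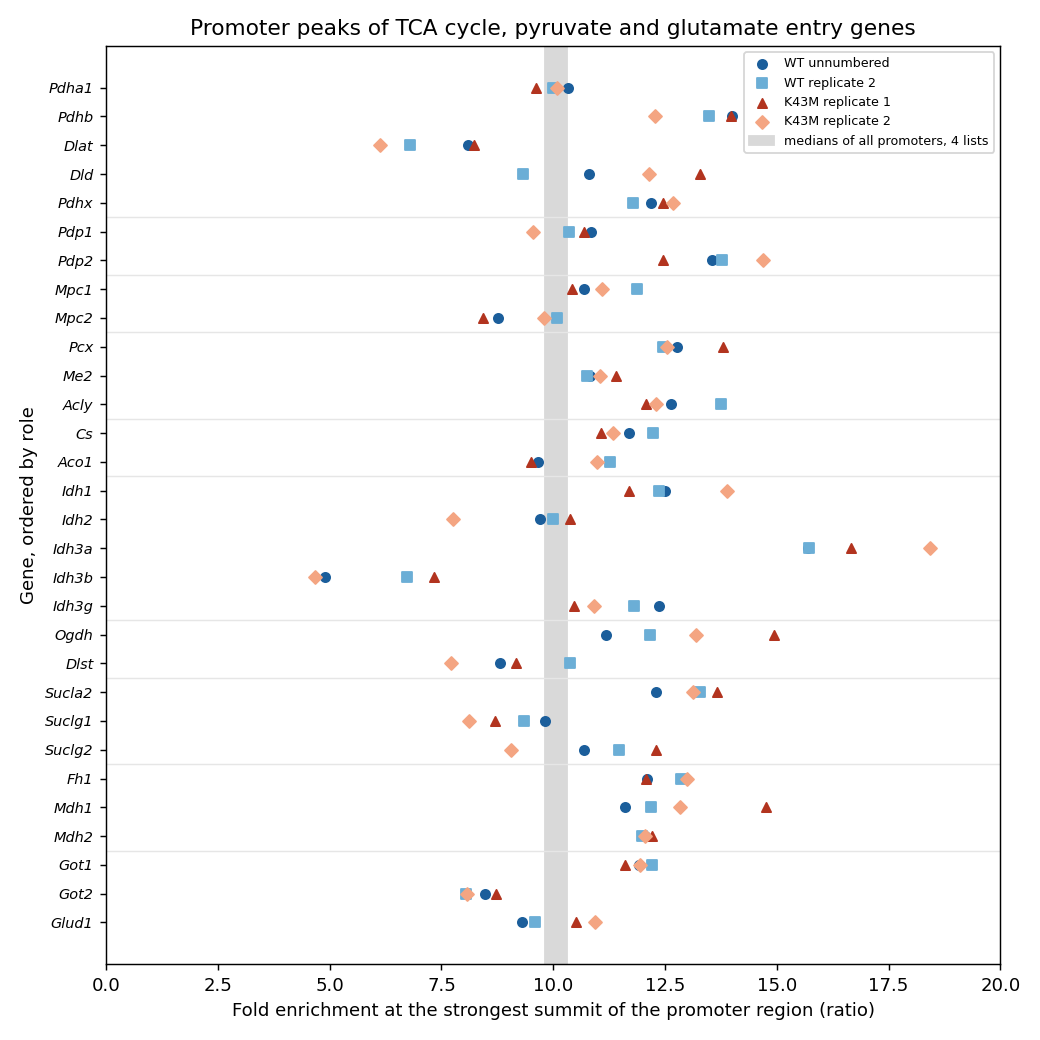
Fold enrichment at the strongest summit of the main promoter region (x axis, ratio to the background of the same library) for the 30 genes with one (y axis, ordered by role, lines between roles), 1 point per library. The grey band spans the medians of all open promoters in the 4 lists (9.82 to 10.3). Idh3a lies to the right in every library, with 15.7 to 18.4, and Idh3b to the left, with 4.68 to 7.33.

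In the pyruvate dehydrogenase complex, Pdhb, the beta subunit of its decarboxylase, had fold enrichments of 14.0, 13.5, 14.0 and 12.3, the highest of the complex except in K43M replicate 2, where Pdhx had 12.7 (chr14:8172691-8173891, summit 58 bp upstream of the start). Its partner Pdha1 on chromosome X had 10.3, 10, 9.62 and 10.1. Dlat, the acetyltransferase core, was the low member of the complex with 8.08, 6.79, 8.24 and 6.12 (chr9:50659086-50660129). Dld, the dihydrolipoamide dehydrogenase that this complex shares with 2-oxoglutarate dehydrogenase, had 10.8, 9.32, 13.3 and 12.1. Both K43M values of Dld lay above both WT values. After centring, 20.9% of all promoter regions were separated in that direction and 18.6% in the other. Member promoters so separated are named further on. Pdhx, which binds Dld to the core, had 11.8 to 12.7 and shared an open region with Apip, which starts 162 bp away on the other strand.

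Pdp1 and Pdp2, the phosphatases that reactivate the complex, had 9.54 to 10.9 and 12.5 to 14.7. The subunits of the mitochondrial pyruvate carrier, Mpc1 and Mpc2, had 10.4 to 11.9 and 8.42 to 10.1. Pcx, pyruvate carboxylase, had 12.8, 12.5, 13.8 and 12.5. The mitochondrial malic enzyme Me2 had 10.8, 10.8, 11.4 and 11.0 at its start, with a weaker region further upstream in the window (4.16, 5.06, 4.10 and no peak), and Acly, which makes cytosolic acetyl-CoA from citrate, had 12.6, 13.8, 12.1 and 12.3. In every library Pdp2 was above Pdp1, and Mpc1 above Mpc2, by fold enrichment. By -log10 q the order of the carrier subunits was reversed. Mpc2 stood at the percentiles 98.1, 99.7, 97.4 and 99.4, and Mpc1 at 86.4, 89.5, 84.6 and 85.7.

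At the entrance of the cycle, the promoter of Cs, citrate synthase, had 11.7, 12.2, 11.1 and 11.3 (chr10:128337331-128338382), and that of Aco1, the cytosolic aconitase that also acts as iron regulatory protein, had 9.66, 11.3, 9.51 and 11.0. The isocitrate dehydrogenases held both extremes of the set. Idh3a, the catalytic subunit of the NAD-dependent enzyme, had 15.7, 15.7, 16.7 and 18.4 (chr9:54586073-54587089, summit 21 bp downstream of the start), the highest member promoter in each list. Idh3b, a structural partner of the same enzyme, had 4.89, 6.74, 7.33 and 4.68 (chr2:130283750-130284634), the lowest in each list. Idh3g, the remaining subunit, had 12.4, 11.8, 10.5 and 10.9 at a start 131 bp from that of Ssr4. Both K43M values of Idh3g lay below both WT values. The values of these 3 subunits did not overlap: every Idh3a value was above every Idh3g value, and every Idh3g value above every Idh3b value.

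The cytosolic NADP-dependent Idh1 opened at both of its coding starts. The upstream region (chr1:65186259-65187134), shared with Pikfyve, had 12.5, 12.4, 11.7 and 13.9, and the downstream region (chr1:65178176-65179650) had 7.97, 9.52, 9.44 and 8.24. The upstream start was the higher in every library. The mitochondrial Idh2 had 9.70, 10, 10.4 and 7.76.

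Ogdh, the decarboxylase of the 2-oxoglutarate dehydrogenase complex, had 11.2, 12.2, 14.9 and 13.2 (chr11:6291391-6292434), with both K43M values above both WT values. Dlst, its succinyltransferase core, had 8.81, 10.4, 9.16 and 7.71 at its main promoter, whose start is 74 bp from that of Prox2. Of the succinyl-CoA ligase subunits, Sucla2 (ADP-forming beta) had 12.3 to 13.7 upstream and 10.4 to 11.9 at a second coding start. The shared alpha subunit Suclg1 had 9.81, 9.35, 8.70 and 8.12, with both K43M values below both WT values. The GDP-forming beta subunit Suclg2 had 10.7, 11.5, 12.3 and 9.05. Fh1, fumarase, had 12.1 to 13.0. The malate dehydrogenases had 11.6, 12.2, 14.8 and 12.8 (Mdh1, cytosolic) and 12.1, 12.0, 12.2 and 12.0 (Mdh2, mitochondrial), both beside an opposite start of another gene, Wdpcp at 42 bp and Styxl1 at 95 bp.

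At the glutamate entry, the aspartate aminotransferases differed. Got1, the cytosolic enzyme, had 11.9, 12.2, 11.6 and 11.9 (chr19:43524102-43525227). Got2, the mitochondrial enzyme, had 8.48, 8.05, 8.72 and 8.07, with its strongest summit 712 bp downstream of the nearest coding start. Got1 was higher in every library. Glud1, glutamate dehydrogenase, had 9.30, 9.59, 10.5 and 10.9, and both K43M values lay above both WT values. This region was shared with Shld2, which starts 234 bp away on the other strand.

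To ask whether the kinase-inactive allele went with another level of opening, the log2 fold enrichment was centred to a median of 0 in each list, and K43M was compared with WT by limma over the 20964 regions that every list shared. At an adjusted p under 0.05 (Benjamini-Hochberg), 13 regions (0.062%) were higher and 10 (0.0477%) lower in K43M. None of the 32 promoter regions of the members was among them. The smallest adjusted p of a member promoter in limma was 0.312, and 2 had an unadjusted p under 0.05. The median difference of the 30 main promoters was -0.02 log2 units, with a range from -0.19 to 0.34 and standard errors from 0.10 to 0.25, against a median of 0.01 over 10134 promoter regions. Leaving out each library in turn moved the members' median between -0.06 and 0.05, so its sign was not stable. An exact permutation test over the 4 libraries has 6 assignments and cannot go below a two-sided p of 0.333.

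The promoters that differed most were those of Dld and Ogdh, without passing the test. Dld was 0.34 ± 0.13 (SE, n = 2 per genotype) higher in K43M on the centred log2 scale, a ratio of 1.27, with a limma adjusted p of 0.312. Ogdh was 0.27 ± 0.11 higher, a ratio of 1.21, with a limma adjusted p of 0.368. Mdh1 followed with 0.21 ± 0.11, Glud1 with 0.19 ± 0.14 and Idh3a with 0.16 ± 0.10. At the other end were Suclg1 at -0.19 ± 0.16, Dlst, the partner of Dld and Ogdh in the 2-oxoglutarate dehydrogenase complex, at -0.18 ± 0.16, and Idh3g at -0.17 ± 0.13. None of these passed the threshold, so the data neither show a change nor show that the genotypes were alike.

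After centring, both K43M values lay above both WT values in 7 of 30 main promoters (23.3%), against 20.9% of all promoter regions. These were Dld, Ogdh, Mdh1, Glud1, Idh3a, Pcx and Me2. Both lay below in 4 (13.3%), against 18.6%, and these were Suclg1, Idh3g, Pdhb and Pdp1. In the remaining 19 the genotypes overlapped. By role, the median difference ran from -0.07 for the succinyl-CoA ligase subunits to 0.06 for the side reactions of pyruvate, malate and citrate. The shares were close to those of promoters in general.

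**Figure D2:**
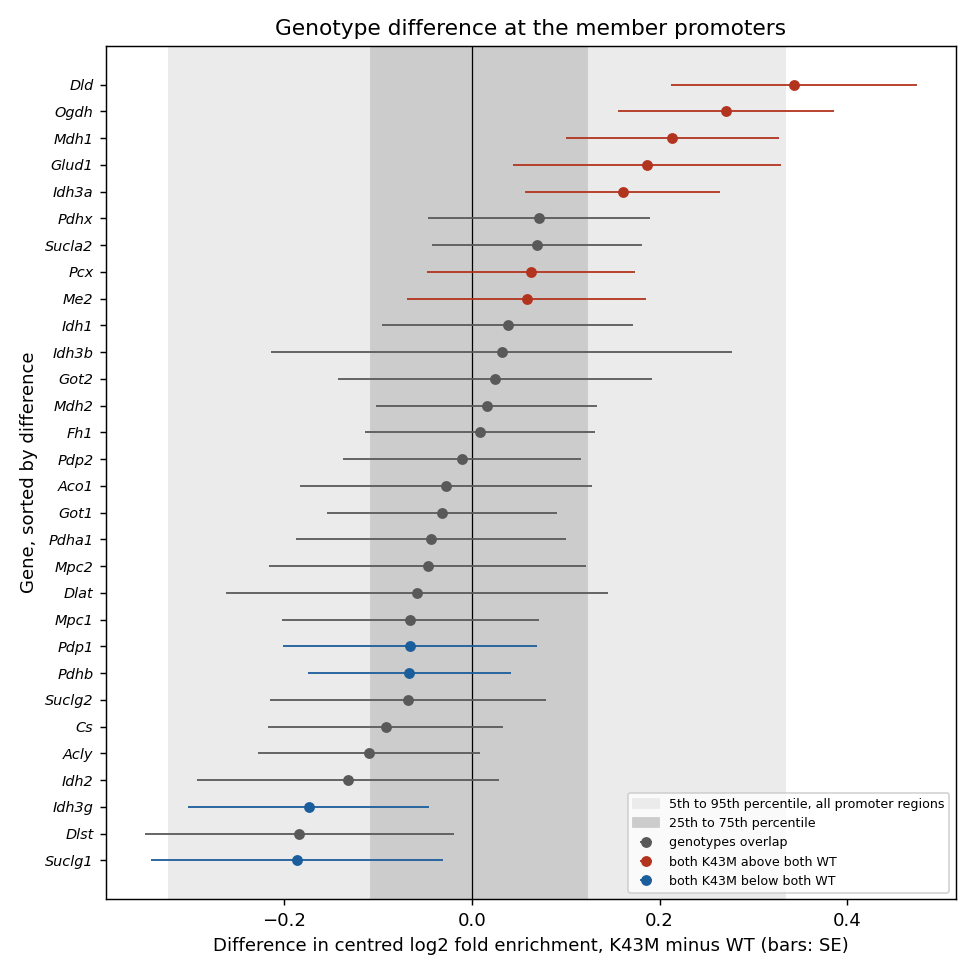
Difference in centred log2 fold enrichment, K43M minus WT (x axis), at the main promoter of 30 genes (y axis, sorted), with bars of 1 SE from limma. Colours mark promoters where both K43M libraries lay above (7) or below (4) both WT libraries, and grey bands give the spread over all 10134 promoter regions. Dld, at 0.34, is at the edge of the wider band.

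Some member genes held internal regions that overlapped promoter windows of short non-coding transcripts, where libraries differed more than at the main promoters. In Dlst, a region in an intron (chr12:85130462-85130967), 217 bp after a retained-intron transcript start and 19825 bp from the 5′ end, had no peak in WT unnumbered and fold enrichments of 5.15, 13.6 and 11.4 in the other libraries. A second Dlst region (chr12:85122992-85123886), 12375 bp from the 5′ end, had no peak, 7.03, 9.44 and 7.91. In both regions the K43M values were above the value of WT replicate 2. Since 1 list had no peak, neither region entered the comparison above. In limma without WT unnumbered, WT replicate 2 stood alone for its genotype and was assumed to vary like the K43M lines. The more distal region was then 1.25 ± 0.22 log2 units higher in K43M. That value rests on 1 WT line. In Acly, an intronic region (chr11:100500712-100501706), 26619 bp from the 5′ end, had no peak in either WT list and 5.90 and 6.36 in the K43M lists. These peaks stood at the percentiles 33.4 and 47.2 by -log10 q. The share of such regions among promoter-window regions was not computed. Among all gene-body regions, 9.65% had peaks in the K43M lists alone and 5.1% in the WT lists alone.

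Me1 had 6 regions, all in introns, and no peak at its main start. Around that 5′ end the DNA had 75.6% G and C and a ratio of observed to expected CpG of 0.906, so the closed start lay in CpG-rich sequence like the open ones. The region nearest to any start (chr9:86617487-86618369) lay 719 bp inside an internal processed transcript and 77968 bp from the 5′ end. It had 4.34, no peak, 8.28 and 5.65. Another (chr9:86631146-86631493) had 4.77, 5.42, 7.84 and no peak, and a further one (chr9:86661738-86662101) had 4.34, 5.15, 5.23 and no peak. A region near the 3′ end (chr9:86583749-86584032) had 6.03 and 5.26 in the WT lists and no peak in the K43M lists. The regions of Me1 thus came and went between lines in both directions.

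Outside the promoter windows the members had 19 regions, of which 10, 7, 16 and 9 had a peak in the respective list. A peak in all lists was found in 4 (21.1%), against 30% of all gene-body regions. The Me1 region near the 3′ end was the only one with peaks in the WT lists alone (5.26%, against 5.1%). In 3 (15.8%, against 9.65%) peaks were in the K43M lists alone. They were a pair in introns of Suclg2 (chr6:95573111-95573384, 4.50 and 6.10, and chr6:95613320-95613630, 6.04 and 4.76) and a weak one 986 bp into Got1 (chr19:43523489-43523773, 3.33 and 3.14). K43M replicate 1 had the most of these regions and the most peaks. With the strongest 33038 peaks of each list, 1 of 16 regions (6.25%, against 8.23%) was in the K43M lists alone. In the WT lists alone there were 2 (12.5%, against 6.69%). The part of list length was not tested beyond this. Without 1 library its genotype is left with a single list, so that a peak in 1 list is enough and counts rise by construction. Without K43M replicate 1, 5 of 16 regions (31.2%) were in K43M alone and 4 (25%) in WT alone, against 20.3% and 10.8% of all gene-body regions. Without K43M replicate 2, 9 of 19 (47.4%) were in K43M alone, against 24.9%. Without WT replicate 2, 2 of 19 (10.5%) were in WT alone, against 12.9%, and without WT unnumbered 1 (5.26%, against 13.0%). In K43M alone there were 4 without WT unnumbered (21.1%, against 13.5%).

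The 4 regions open in all lists were in Cs, Pcx, Suclg1 and Suclg2. In Cs, an intronic region 7290 bp from the start (chr10:128344708-128345221) had 10.3, 6.64, 5.37 and 5.38. The difference was -0.62 ± 0.23 log2 units in K43M, a ratio of 0.653, with a limma adjusted p of 0.309. WT unnumbered stood above the other WT line here. Without WT replicate 2 the difference was -0.94 ± 0.28, a value that rests on WT unnumbered as the only WT line, assumed to vary like the K43M lines. The intronic region of Pcx (chr19:4615209-4616064) had 6.32, 7.26, 9.54 and 8.75 (0.43 ± 0.18, limma adjusted p = 0.356) and lay 197 bp from the promoter start of Lrfn4. Suclg1 had 8.90, 9.29, 9.54 and 5.81 at an exon, and Suclg2 had 9.27, 8.05, 10.8 and 9.74 in an intron 166316 bp from its 5′ end. Neither passed the test.

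**Figure D3:**
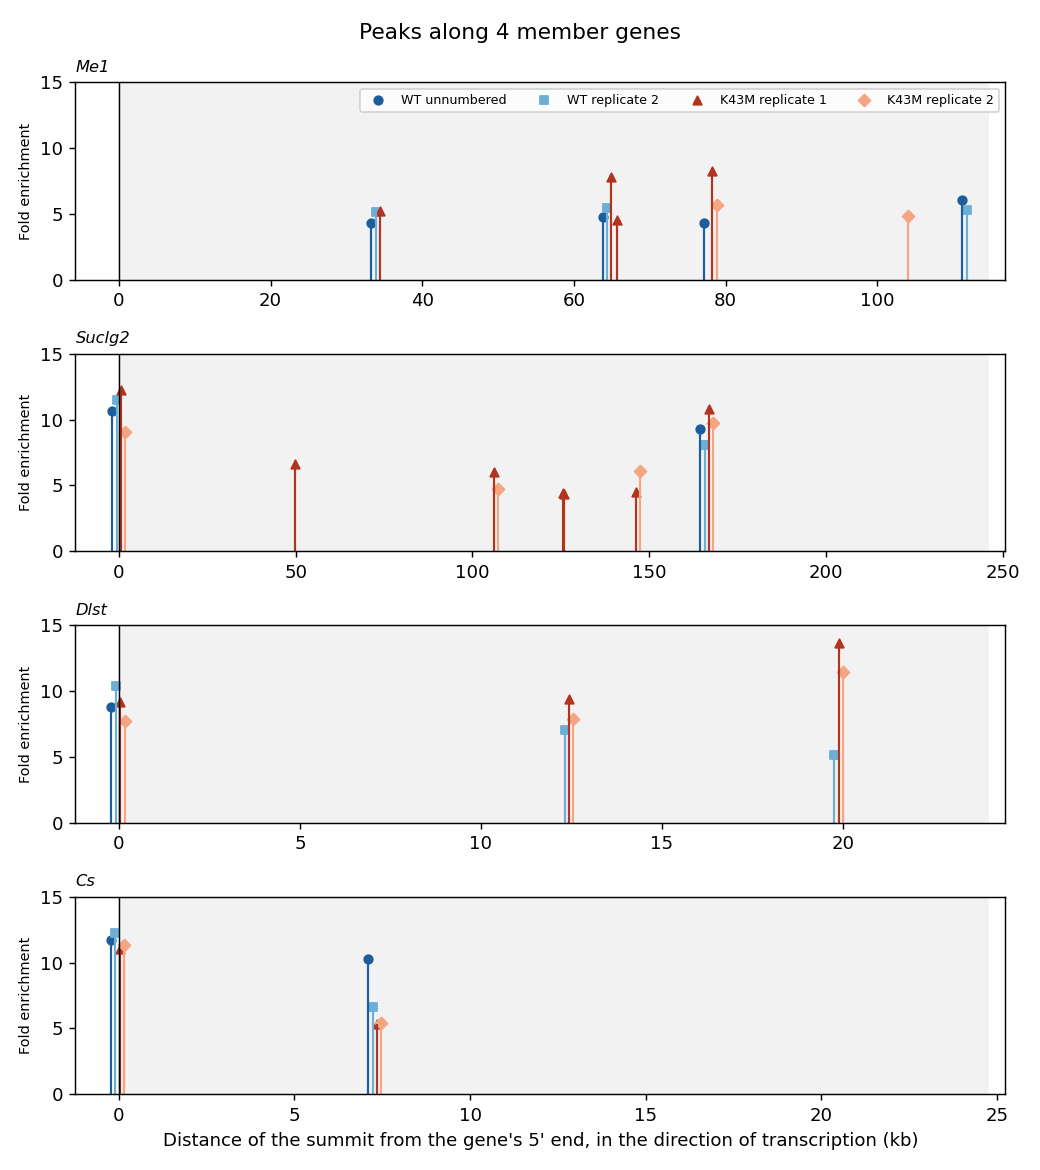
Summits of all peaks assigned to Me1, Suclg2, Dlst and Cs by distance from the 5′ end in the direction of transcription (x axis, kb, points of the same region drawn side by side) and their fold enrichment (y axis), by library, with the gene body shaded. Me1 has no peak at 0 kb, Suclg2 holds several peaks seen in K43M lists alone, the distal Dlst region is at 13.6 and 11.4 in K43M against 5.15 in 1 WT line, and the Cs intron is at 10.3 in WT unnumbered.

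The sequence within 100 bp of the strongest promoter summit was searched on both strands for exact motif letters. NFY (CCAATCA or CCAATGA, forms of the CCAAT box) was found in 11 of 30 member promoters (36.7%), against 16.3% of the 10446 open promoters. These were Fh1, Got1, Got2, Idh1, Idh3a, Mdh1, Mpc1, Pcx, Pdp1, Pdp2 and Suclg1. Within 50 bp of the summit the count was 5 (16.7%, against 11.7%). SP1 (GGGGCGGGG) was in 7 (23.3%, against 20.3%), YY1 (AAGATGGCG) in Idh3g and Suclg2 (6.67%, against 3.11%), and ETS (CCGGAAGT) in Mdh2 alone (3.33%, against 9.26%). CRE (TGACGTCA) was in Mdh2 (3.33%, against 3.57%) and the E-box CACGTG in Got2 (3.33%, against 8.16%). No member window held NRF-1 (GCGCATGCG, the site of a regulator of nuclear genes for mitochondria), against 3.11% of all, or ERR (TCAAGGTCA), against 0.0957%. With 1 mismatch allowed, a setting chosen after the exact count was seen, 3 members (10%: Dld, Glud1 and Idh3g) held NRF-1, against 1884 of all 10446. No motif overlapped another in the printed windows, and 14 members held none of the 8 kinds. A match is a description of letters, not of binding. The searched window of Dlst was the intronic summit, since the highest value of the gene in any list was there (13.6 in K43M replicate 1, against 9.16 at the main promoter). In WT unnumbered and WT replicate 2 the main promoter was the higher, and it was not searched.

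**Figure D4:**
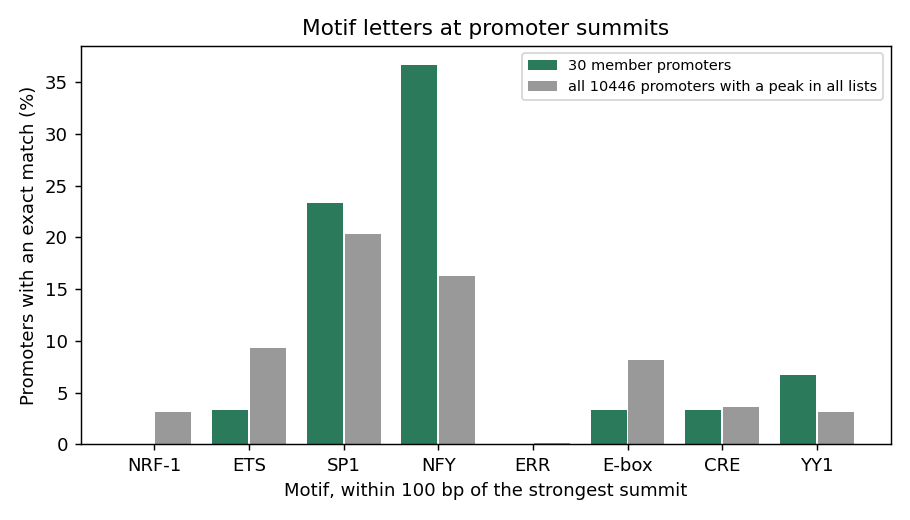
Share of promoters (y axis, percent) with an exact match to each motif (x axis) within 100 bp of the strongest summit, for the 30 member promoters and for all 10446 open promoters. NFY is at 36.7% of members against 16.3%, and NRF-1 at 0 against 3.11%.

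The windows searched were also compared in base composition. In 501 bp around the summit they had a median of 63.4% G and C and a CpG ratio of 0.816, against 62.7% and 0.808, and 26 of 30 (86.7%, against 81.7%) were CpG-rich, with at least 50% G and C and a ratio of at least 0.6. The others were Pdp2, Acly, Got2 and Dlst, whose window was the intronic summit (49.3% and 0.236). Around its 5′ end Dlst had 68.3% and 0.857. Of the 30 genes, 9 (30%) had an opposite-strand start of another protein-coding gene within 250 bp, against 1878 of all 10446. They were Pdhx, Mpc2, Idh1, Idh3g, Dlst, Sucla2, Mdh1, Mdh2 and Glud1. At these shared promoters a peak cannot be given to one of the genes, and the values above hold for the pair.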

How the data were processed

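ATAC-seq peak lists of 4 lines were used. The authors trimmed reads with Trimmomatic 0.36, mapped them to mm10 with BWA 0.7.15 and called peaks per library with MACS2 2.1.0. Deposited were, for each peak, its fold enrichment (a ratio) and its −log10 p-value and q-value. Read totals were not given in the sources used here, so precision is known only through the spread of 2 lines per genotype.

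Members and lists were chosen with earlier results of these data known. Peaks overlapping by at least 1 bp were merged into regions. Starts were those of GENCODE mouse release 21 (same build). Levels were log2 fold enrichment, median-centred per list and compared by limma 3.58.1 (trended eBayes) over regions with a peak in all lists. Regions with a missing peak were not fitted. Named were all members, their main promoter, regions seen in both lists of 1 genotype alone, and body regions seen in all lists; other internal promoter-window regions were named after their values were seen. The code was tested on simulated data. Alternatives changed the overlap, the window, the threshold, the normalization, the libraries and the motif window. Python 3.11.15 and R 4.3.3 were used. CDK6 binding and expression data were not analysed here.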

Additional observations from a re-analysis of the deposited data

How the results depend on the processing

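The 30 members with promoter peaks in all lists became 24 when a peak had to lie in the window by at least 50% of its length (Pdha1, Dlat, Dld, Aco1, Idh2 and Got2 were lost). With a window of 500 bp on either side, 1 member (Me1) had promoter peaks in the K43M lists alone. The share of all genes under that window was not computed. These peaks lay by the internal processed transcript, 77968 bp from the 5′ end, not at the main start. Their summits were 719 and 692 bp from the internal start. WT unnumbered had a peak in the same region, with a summit at 676 bp, that did not reach the window. No main member promoter was called under any of the 8 other fits. With the recovered summit pileup in place of fold enrichment, limma called 508 of 20964 regions higher and 428 lower, against 13 and 10. The smallest limma adjusted p of a member was 0.0701 (Me2), and 11 of 30 differences changed sign. Me2 was among them, at -0.35 log2 units against 0.06 in the main fit. So were Mdh1 (-0.04 against 0.21) and Idh3g (0.11 against -0.17). Calls over the same 20964 regions were 6 and 4 with quantile normalization and 33 and 21 with centring within chromosomes. With peaks of -log10 q of at least 5 they were 24 and 15 of 18913 regions. Fits without 1 library leave a single line for 1 genotype, so their counts of calls are not given. Without WT unnumbered, the distal Dlst region was 1.25 ± 0.22 log2 units higher in K43M, with 1 WT line in the fit. Leaving out libraries put the gene-body regions of the WT lists alone between 1 and 4 (main value 1). Those of the K43M lists alone were between 3 and 9 (main value 3). With equal numbers of peaks those counts were 2 (12.5%, against 6.69% of all gene-body regions) and 1 (6.25%, against 8.23%). At -log10 q of at least 5 the K43M count was 1. Within 50 bp of the summit, matches were in 5 members for NFY (16.7%, against 11.7% of all open promoters), 0 for ETS (against 6.47%), 0 for CRE (2.80%) and 1 for YY1 (3.33%, against 1.05%). Within 250 bp they were in 1 for NRF-1 (Idh3a, 3.33%, against 4.83%), 2 for ETS (6.67%, against 11.7%), 5 for the E-box (16.7%, against 14.6%), 2 for CRE (6.67%, against 4.45%) and 4 for YY1 (13.3%, against 5.96%). With 1 mismatch NRF-1 had 3. Shares of all promoters move with the window too. Other causes were not tested. No paired analysis was possible because the wildtype lists carry only 1 replicate number in the labels and the numbers mark lines.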
